A study of Mus musculus with 16 samples.

Results

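Genes known for ion transport in the stria vascularis were followed in ribosome-bound and total RNA of the neonatal mouse cochlea. They were chosen by gene symbol from a list of 10 names: Kcnq1, Kcne1, Kcnj10, Kcnj16, Slc12a2, Slc26a4, Atp1b2, Barttin, Bsnd and Esrrb. Barttin is the protein made from Bsnd and has no row of its own, so the list gave 9 genes among the 47729 genes with values. After ablation of Lgr5+ cells, Kcnj16, Kcnj10 and Atp1b2 were lower both in total RNA (input) and in RNA of immunoprecipitated ribosomes (IP), with folds from 2.02 to 8.05. Kcnq1 and Slc12a2 were not lower in either kind of RNA. Tagged ribosomes came from GLAST-Cre+ cells, but no tested gene of the set passed as higher in IP than in input. The IP values therefore cannot be assigned to those cells. Kcne1, Bsnd, Esrrb and Slc26a4 differed between pools of the same control group. The sign of the Esrrb difference in input, and of the Slc26a4 difference in IP, changed with the control pools kept. Kcne1 was lower after ablation and kept that sign, but its fall was smaller and did not pass without control pools 1 and 2. Those pools were left out after they were seen to be high, which fixes a smaller fall.

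RNA was sequenced from P4 cochleae in 16 libraries, with 4 replicates for each pairing of treatment group (control or DTR) and kind of RNA (input or IP). Control mice carried GLAST CreERT/+, a tamoxifen-inducible Cre driven by the GLAST (Slc1a3) locus, and Rpl22 HA/+, which tags a ribosomal protein with HA in cells where Cre has acted. DTR mice carried both of these alleles and Lgr5 DTR/+, which places the diphtheria toxin receptor and EGFP under the Lgr5 locus. By the methods of the study both groups were given diphtheria toxin and tamoxifen on the first postnatal day, while the sample labels state no treatment for the controls. Each of the 8 pools held 8 cochleae from 4 mice and gave 1 input and 1 IP library. Input was 5% of the homogenate, and the other 95% went into an anti-HA immunoprecipitation. The spiral ganglion, the lateral wall and Reissner's membrane were dissected away, and the lateral wall is where the stria vascularis lies. The name of the set therefore describes what these genes are known for and not the tissue that was kept.

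Between 28089836 and 41966310 reads were counted per library, so that 3 reads corresponded to 0.0715 to 0.107 CPM (read counts brought to one library size). Such limits cover counting error only. Lgr5 was lower in DTR than in control libraries, 4.01-fold in input and 3.82-fold in IP (limma, adjusted p = 2.2e-08 and 3.5e-08). Only DTR mice carried the altered Lgr5 allele, so loss of cells and an effect of that allele on Lgr5 reads cannot be told apart. Markers of the strial layers were present at uneven levels. Of the intermediate cell list, Tyr and Tyrp1, enzymes of melanin synthesis, were each at 0 in 6 of 16 libraries, while Tyr reached 7.208 CPM, Dct 39.81 and Kcnj13 24.18 in single libraries. Cldn11, the tight junction claudin of strial basal cells, lay between 8.53 and 23.7 CPM in all of them.

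The stria vascularis is a layered epithelium that secretes potassium into endolymph and sets up the endocochlear potential on which hair cell transduction depends. Its marginal cells take up potassium from the intrastrial space through Na+/K+-ATPase and a Na+-K+-2Cl- cotransporter, return chloride through channels that need barttin, and release potassium through an apical channel built from Kcnq1 and Kcne1. Intermediate cells, which are melanocytes, carry the inward rectifier Kcnj10. Most of these genes also work outside the stria: Kcnj10 in glia and in cochlear supporting cells, Kcnj16 as its partner in mixed channels, and the cotransporter and Na+/K+-ATPase in many epithelia, neurons and fibrocytes.

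Values are given as deposited CPM in replicates 1 to 4 of each group. Log2 fold changes (LFC), standard errors (SE) and tests come from limma on log2(quantile normalized CPM + 0.5), fitted over all 16 libraries, with Benjamini-Hochberg adjustment over the 16994 genes with 0.5 CPM or more in every replicate of some group. The added 0.5 makes folds of low genes smaller than they were. Of the 9 genes, 8 reached this filter. Bsnd did not, Kcne1 reached it only in the control groups, and Esrrb reached it only in DTR input. A gene passed at an adjusted p under 0.05. The study's own criteria added an absolute LFC of at least 1 (2 for IP over input) and a separation above 1.5, where separation divides the lowest library of the group with more RNA of the gene by the highest library of the other, after values under 1.08 CPM are raised to it.

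The comparison of DTR with control asked what changed after loss of Lgr5+ cells. In IP libraries 4 of the 8 genes tested were lower in DTR and 1 was higher. Kcne1, among the lower ones here and in input, reached the filter only in the control groups. Its place in these counts and medians therefore favours a fall. Over all genes tested, 7.30% were lower and 8.44% were higher. By the study's criteria 3 were lower (Kcnj16, Kcnj10 and Atp1b2) and 0 were higher, against 1.34% and 1.12% of genes tested. In input 4 were lower and 0 were higher, against 5.21% and 7.17%. The 4 lower ones also met the study's criteria, which 1.00% of genes tested did, while 1.34% met them in the other direction. The median LFC of the 8 genes was -1.17 in IP and -0.81 in input, while that of all genes tested was -0.004 and -0.021. Control libraries enter other comparisons below as well, so the results are not independent of each other.

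**Figure D1:**
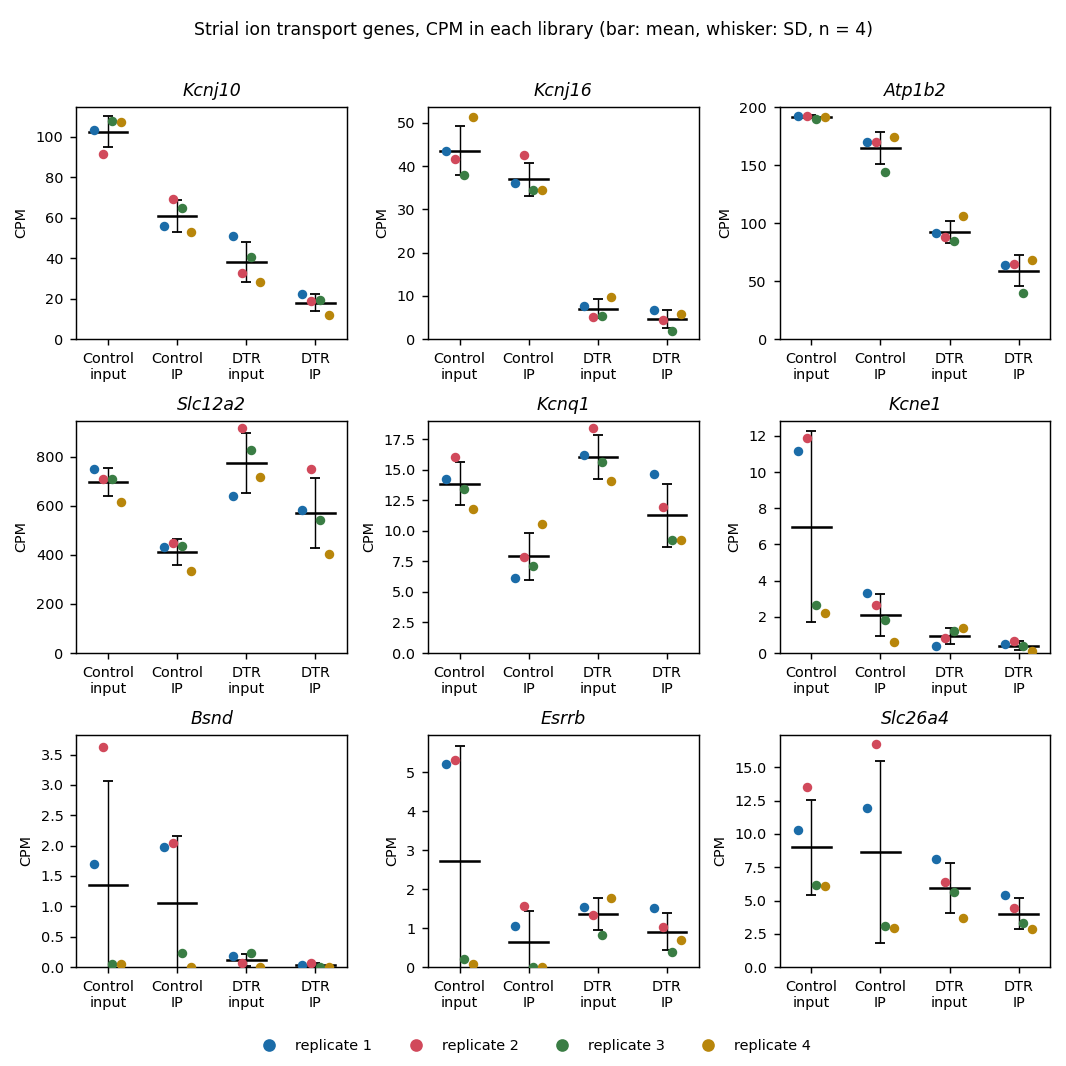
Each panel shows the CPM of 1 gene on a linear axis from 0 in the 16 libraries, by group, with points coloured by replicate, a bar at the group mean and a whisker for the SD (n = 4). Kcnj16, Kcnj10 and Atp1b2 separate control from DTR without overlap within each kind of library, whereas control replicates 1 and 2 stand above 3 and 4 for Kcne1, Bsnd, Esrrb and Slc26a4.

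Kcnj16 and Kcnj10 encode inwardly rectifying potassium channel subunits that assemble together. Kcnj10 (ENSMUSG00000044708, GRCm38 chr1:172341210-172374085, + strand) gave 103.3, 91.56, 107.8 and 107.4 CPM in control input and 50.9, 32.5, 40.58 and 28.08 in DTR input. In IP it gave 55.98, 69.44, 65.01 and 52.77 in control and 22.08, 18.8, 19.12 and 12.03 in DTR. Every DTR library was below every control library of its kind. Kcnj10 fell by 1.43 on the log2 scale in input (SE 0.17, adjusted p = 7.8e-06, 2.7-fold) and by 1.79 in IP (SE 0.17, adjusted p = 5.4e-07, 3.46-fold).

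Kcnj16 (ENSMUSG00000051497, chr11:110968033-111027968, + strand) changed more. Its values were 43.56, 41.53, 37.84 and 51.28 CPM in control input against 7.651, 5.005, 5.439 and 9.776 in DTR input. Its IP values were 36.18, 42.46, 34.56 and 34.52 in control against 6.748, 4.414, 1.855 and 5.688 in DTR. The groups did not overlap, and the lowest control value was 4.06 times the highest DTR value in input and 5.72 times in IP. Kcnj16 fell by 2.68 on the log2 scale in input (SE 0.27, adjusted p = 9.7e-07, 6.4-fold) and by 3.01 in IP (SE 0.27, adjusted p = 2.1e-07, 8.05-fold). The LFC of Kcnj16 stayed between -3.18 and -2.65 in IP and between -2.86 and -2.55 in input when each library was left out in turn.

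Per kilobase of exon, the ratio of Kcnj16 to Kcnj10 was 0.731 to 0.899 in control IP and 0.133 to 0.649 in DTR IP. In input it was 0.482 to 0.656 in control and 0.184 to 0.478 in DTR. The ratio was thus lower in DTR with no overlap in either kind of library, which describes the larger fall of Kcnj16 but is no separate test of it.

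Because the pair fell together, their promoters are shown. Promoter windows from RefSeq on GRCm38.p6 were searched for 4 of the 9 genes (Kcnj10, Kcnj16, Slc26a4 and Esrrb). These had 8 windows in all, of which the 250 bases before the start were used. The other genes of the set were not searched. Kcnj10 has 1 window, and 2 of the 4 Kcnj16 windows are printed, both with a motif match in capitals. All are on the + strand and written 5′ to 3′.
Kcnj10, chr1:172340960-172341209: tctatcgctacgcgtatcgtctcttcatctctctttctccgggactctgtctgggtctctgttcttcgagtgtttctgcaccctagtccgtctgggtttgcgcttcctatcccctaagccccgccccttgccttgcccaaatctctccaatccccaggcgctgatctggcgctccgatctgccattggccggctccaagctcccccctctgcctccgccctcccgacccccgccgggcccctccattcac
Kcnj16, first start, chr11:110967783-110968032: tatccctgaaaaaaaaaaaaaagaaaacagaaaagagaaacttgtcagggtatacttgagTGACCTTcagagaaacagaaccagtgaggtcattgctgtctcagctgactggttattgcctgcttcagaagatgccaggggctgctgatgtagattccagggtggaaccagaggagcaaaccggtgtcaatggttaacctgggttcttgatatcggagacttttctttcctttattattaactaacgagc
Kcnj16, second start, chr11:110997237-110997486: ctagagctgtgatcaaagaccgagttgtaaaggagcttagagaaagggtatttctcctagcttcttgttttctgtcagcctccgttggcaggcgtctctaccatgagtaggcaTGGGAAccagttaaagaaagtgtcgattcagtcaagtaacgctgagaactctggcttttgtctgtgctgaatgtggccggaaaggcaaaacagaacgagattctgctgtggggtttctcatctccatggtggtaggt

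The windows differ in composition. That of Kcnj10 has 62% GC and 17 CpG, the first window of Kcnj16 has 42.8% GC and 3 CpG and the second has 47.6% and 7, where the medians over 32851 windows are 52.4% and 6. Both strands were searched for AAGGTCA (the extended half-site of ESRRB), ACAAAG (SOX), TGGGAA (RBPJ) and TGTTTAC (forkhead), which do not overlap in the windows shown. The first Kcnj16 window holds AAGGTCA on the reverse strand, read as TGACCTT, at bases -190 to -184 from the start, and 4.08% of all windows hold this motif. The second holds TGGGAA at -137 to -132, as do 21.6% of all windows. ACAAAG is in 16.5% and TGTTTAC in 3.17% of all windows and in none of the 8, and the Kcnj10 window holds none of the 4 motifs. These are letter matches only.

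Atp1b2, a beta subunit of Na+/K+-ATPase (ENSMUSG00000041329, chr11:69599736-69605942, - strand), was the steadiest of the 3 genes that fell in both. It gave 192.2, 192.8, 190.1 and 191.9 CPM in control input and 91.2, 87.96, 84.78 and 105.9 in DTR input. In IP it gave 170.2, 170, 144 and 174.3 in control and 64.24, 64.47, 39.72 and 67.93 in DTR. No DTR library reached a control library of its kind, and replicate 3 was the lowest in both IP groups. Atp1b2 fell by 1.02 on the log2 scale in input (SE 0.14, adjusted p = 2.9e-05, 2.02-fold) and by 1.53 in IP (SE 0.14, adjusted p = 1.8e-07, 2.89-fold).

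Supporting cell markers fell beside these 3 genes, as did most of the glial markers in input. Of the 6 Lgr5-lineage supporting cell genes tested (Lgr5, Fgfr3, Lfng, Hes5, Prox1 and Cyp26b1), 6 were lower in input and 5 in IP, and their summed level went from 410.3 to 510 CPM in control input to 54.34 to 85.15 in DTR input, and from 541.2 to 669.8 in control IP to 64.9 to 88.71 in DTR IP. Of the 6 glial genes tested (Mbp, Sox10, Fabp7, Mag, Prx and Cnp), 4 were lower in input (Mbp, Mag, Prx and Cnp) and 2 in IP (Mbp and Fabp7). Over all genes tested, 5.21% were lower in input and 7.30% in IP. Fabp7 is also the study's marker of inner phalangeal cells, a supporting cell type among those ablated, so it does not count for glia alone. Without it the glial sums were 1909 to 3010 CPM in control input, 899 to 1275 in DTR input, 588 to 865 in control IP and 415 to 531 in DTR IP. Sox10, the transcription factor of the list, did not pass (LFC -0.39, SE 0.13, adjusted p = 0.063 in input). None of these marker genes was at 0 in any library. The part of either cell type in the falls of Kcnj10, Kcnj16 and Atp1b2 was not tested, and in bulk RNA fewer cells of a type and less RNA per cell cannot be told apart.

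**Figure D2:**
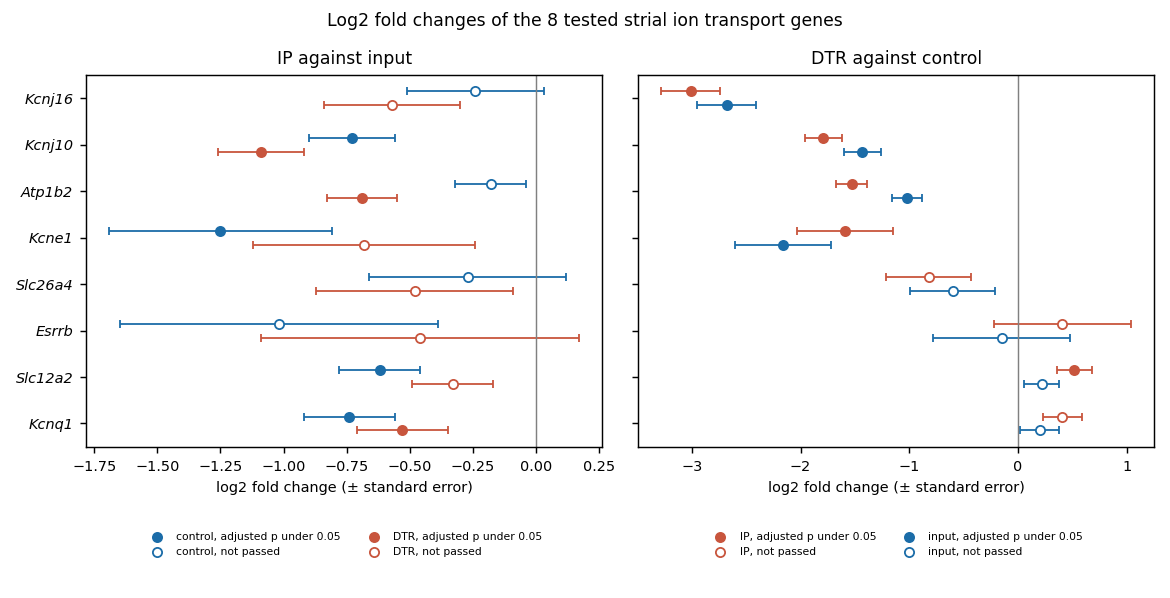
LFC with SE (horizontal axis) for the 8 tested genes, with IP against input on the left (blue control, red DTR) and DTR against control on the right (red IP, blue input), and filled points where the adjusted p was under 0.05. Kcnj16, Kcnj10, Atp1b2 and Kcne1 lie below 0 with filled points in both comparisons of DTR with control, and every point for IP against input lies below 0.

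Slc12a2, the Na+-K+-2Cl- cotransporter (ENSMUSG00000024597, chromosome 18, + strand), was the most abundant gene of the set per kilobase in 3 of the 4 groups. In input it gave 751.7, 708.3, 709.8 and 617.1 CPM in control and 640.6, 918.2, 825.7 and 717.8 in DTR. In IP it gave 433.2, 449, 436.3 and 333.7 in control and 584.1, 749.5, 540.3 and 403.8 in DTR. The groups overlapped in input, and in IP 3 of the 4 DTR libraries were above every control library. The LFC was 0.22 in input (SE 0.16, adjusted p = 0.45). In IP Slc12a2 passed with an LFC of 0.52 (SE 0.16, adjusted p = 0.033), but it did not pass without quantile normalization (adjusted p = 0.073), with median centring (0.11), with edgeR (0.11) or with DESeq2 (0.079). Leaving out any 1 of 6 of the 8 IP libraries gave an adjusted p of 0.051 to 0.11.

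Kcnq1 and Kcne1 form the apical potassium channel of marginal cells, Kcnq1 as the pore and Kcne1 as its accessory subunit, and they differed in how they behaved. Kcnq1 (ENSMUSG00000009545, chr7:143106362-143427042, + strand) gave 14.25, 16.05, 13.4 and 11.77 CPM in control input and 16.22, 18.4, 15.6 and 14.04 in DTR input. Its IP values were 6.1, 7.857, 7.113 and 10.56 in control and 14.65, 11.96, 9.21 and 9.272 in DTR. The groups overlapped in both kinds of library, and the LFC was 0.20 in input (SE 0.18, adjusted p = 0.59) and 0.41 in IP (SE 0.18, adjusted p = 0.15). Without control IP replicate 4 the IP difference passed (LFC 0.58, adjusted p = 0.025). Kcnq1 hosts the antisense transcript Kcnq1ot1, which gave 24.38 to 57.97 CPM in control input, 32.34 to 47.67 in DTR input, 49.64 to 180.9 in control IP and 87.15 to 231.9 in DTR IP. Of the 4093 exon bases of Kcnq1, 121 are shared with overlapping genes, and reads there cannot be assigned to a strand because the library kit does not mark it. Deviations of Kcnq1 and Kcnq1ot1 from their group means had a Pearson r of 0.02 over the 16 libraries.

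Kcne1 (ENSMUSG00000039639, chr16:92345982-92359468, - strand) gave 11.15, 11.91, 2.66 and 2.225 CPM in control input and 0.384, 0.8241, 1.226 and 1.401 in DTR input. In IP it gave 3.319, 2.648, 1.822 and 0.6212 in control and 0.482, 0.6764, 0.3644 and 0.1315 in DTR. In input the groups did not overlap, although control replicates 1 and 2 stood far above replicates 3 and 4. In IP control replicate 4 lay below DTR replicate 2. Kcne1 fell by 2.16 on the log2 scale in input (SE 0.44, adjusted p = 0.0024, 4.46-fold) and by 1.59 in IP (SE 0.44, adjusted p = 0.018, 3.01-fold). With each library left out in turn, the LFC in input was -2.52 to -1.83 and passed. Without control pools 1 and 2, which were left out after they were seen to be high, the LFC was -1.17 in input (adjusted p = 0.066) and -1.11 in IP (adjusted p = 0.059), and neither passed. A smaller fall was fixed by that choice. Calls over all genes tested were also fewer there, with 3.72% higher and 3.01% lower in input and 5.55% and 4.77% in IP. In IP the call was also lost without control replicate 1 (adjusted p = 0.065) or DTR replicate 4 (0.051), and with no filter on low values (0.064). These values rest on few reads, at most 111 per library in IP and 48 in DTR input.

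Bsnd encodes barttin, a subunit that strial chloride channels need to reach the membrane (ENSMUSG00000025418, chr4:106483456-106492283, - strand). It gave 1.692, 3.632, 0.04836 and 0.05175 CPM in control input, which is 71, 129, 2 and 2 reads. In control IP it gave 1.974, 2.037, 0.2351 and 0 CPM, or 66, 70, 8 and 0 reads. In DTR input it had 6, 2, 9 and 0 reads and in DTR IP 1, 2, 0 and 0. Replicates 1 and 2 of the control group carried nearly all of its reads, and no other library held more than 9. With no filter on low values, so that Bsnd was tested among 32908 genes, the LFC was -1.12 in input (SE 0.60, adjusted p = 0.4) and -1.28 in IP (SE 0.60, adjusted p = 0.26).

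Esrrb is an orphan nuclear receptor needed for the development and function of strial marginal cells (ENSMUSG00000021255, chr12:86361117-86521628, + strand). Control input gave 5.218, 5.321, 0.2176 and 0.07762 CPM, and control IP 1.047, 1.571, 0 and 0. DTR input gave 1.536, 1.343, 0.8172 and 1.766, and DTR IP 1.51, 1.032, 0.3976 and 0.6905. Every DTR library thus lay between the high and the low control libraries in input, and control and DTR overlapped in IP. The LFC was -0.15 in input (SE 0.63, adjusted p = 0.93) and 0.41 in IP (SE 0.63, adjusted p = 0.73). The sign in input was not stable, with an LFC of 0.38 or 0.35 without control input replicate 1 or 2 and of 0.19 with a pseudocount of 0.1. Without both control pools the LFC was 1.37 in input and 1.36 in IP, a rise that was fixed by leaving out the pools seen to be high, and the remaining control libraries held at most 9 reads of Esrrb each.

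Slc26a4 encodes pendrin, an anion exchanger of spindle and outer sulcus cells that secretes bicarbonate into endolymph (ENSMUSG00000020651, chr12:31519827-31559969, - strand). Control input gave 10.27, 13.51, 6.141 and 6.106 CPM and DTR input 8.124, 6.379, 5.618 and 3.655. Control IP gave 11.93, 16.73, 3.057 and 2.91 and DTR IP 5.399, 4.45, 3.28 and 2.828. Replicates 1 and 2 of the control group were the highest in both kinds of library, and the rest overlapped with DTR. The LFC was -0.60 in input (SE 0.39, adjusted p = 0.39) and -0.82 in IP (SE 0.39, adjusted p = 0.17). With the replicate number as a block, its IP difference passed (adjusted p = 0.017). Without control IP replicate 1 or 2 the LFC in IP was -0.58 or -0.45, and without both control pools it was 0.09 in IP and -0.19 in input (adjusted p = 0.89 and 0.81).

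Kcne1, Bsnd, Esrrb and Slc26a4 were thus all higher in control pools 1 and 2 than in pools 3 and 4, and part of the intermediate cell list followed the same split. Dct, an enzyme of melanin synthesis, gave 28.81, 39.81, 2.563 and 2.07 CPM in control input and 3.439, 8.177, 0.7054 and 0.1635 in control IP, and at most 3.811 in any DTR library. Tyr gave 7.077, 7.208, 0 and 0.2329 CPM and Slc45a2, a melanosome transporter, 2.979, 3.519, 0.1451 and 0.05175 CPM in control input. The summed level of the 8 intermediate cell genes was 74.15 and 93.39 CPM in control input replicates 1 and 2, against 31.51 and 33.84 in replicates 3 and 4 and 35.54 to 39.99 in DTR input. Kcnj13 of the same list went the other way, with 11.84, 12.78, 16.15 and 17.96 CPM in control input. In IP the sums were 26.22 to 42.81 in control and 27.49 to 34.59 in DTR. The glial sums were also higher in control input replicates 1 and 2 (3010 and 2732 CPM without Fabp7) than in replicates 3 and 4 (1909 and 2044). Kcnq1, Kcnj10, Kcnj16, Atp1b2 and Slc12a2 did not set these pools apart in this way. The part of tissue left from the lateral wall, or of any other difference between pools, was not tested.

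**Figure D3:**
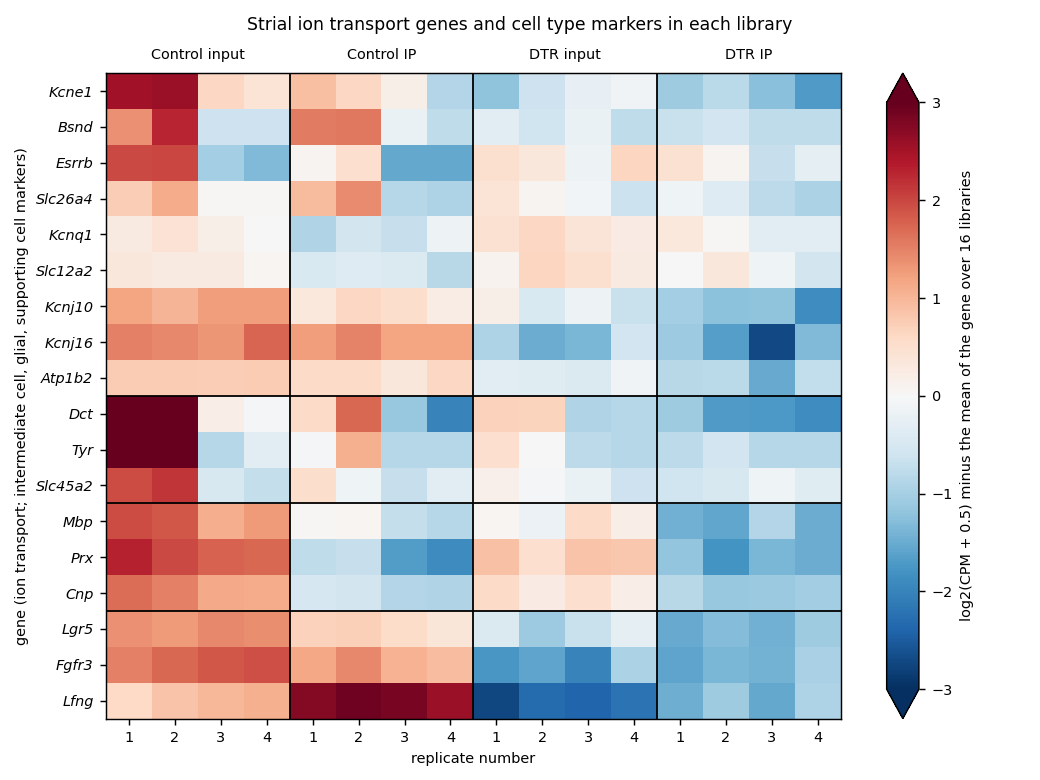
Colour gives log2(CPM + 0.5) minus the mean of the gene over all 16 libraries, for the 9 strial ion transport genes and markers of intermediate cells, glia and supporting cells (rows) in each library (columns, by group and replicate). In control input, replicates 1 and 2 are redder than 3 and 4 for Kcne1, Bsnd, Esrrb, Slc26a4, Dct, Tyr and Slc45a2, while Kcnj10, Kcnj16 and Atp1b2 are alike across the 4 replicates.

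The spread within groups puts numbers on this. The SD of log2 values around the group means was 1.07 for Esrrb, 0.73 for Kcne1 and 0.64 for Slc26a4. It was 0.43 for Kcnj16 and 0.20 to 0.27 for Atp1b2, Slc12a2, Kcnq1 and Kcnj10, near the median of 0.24 over all genes tested. Deviations from the group means over the 16 libraries had a Pearson r of 0.92 between Esrrb and Dct, 0.84 between Slc26a4 and Dct, 0.83 between Kcne1 and Esrrb and 0.71 between Kcne1 and Dct. Kcnj16 and Atp1b2 had an r of 0.86, while Kcnj16 and Kcnj10 had an r of -0.27. Input and IP of a pool share a homogenate, so these 16 points are not independent, and the values are descriptions.

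Among genes with a mean of at least 2 CPM, those whose deviations were most like Esrrb were Dusp8 (r = 0.94), Dct (0.92) and Gpnmb (0.91), the last a melanosome glycoprotein. The nearest to Slc26a4 were Cacnb4, Pvt1 and Bpifb3 (r = 0.92 to 0.93), and to Kcne1 Rbfox2, Usp6nl and Sema5a (0.89 to 0.91). For Atp1b2 they were Usp5, Inppl1 and Cchcr1 (0.94 to 0.96), for Kcnj16 Il17rc, Pmpca and Usp28 (0.91 to 0.92), and for Slc12a2 Pdzd8, Prkar2a and Cacnb2 (0.92 to 0.94). Kcnj10 was nearest to Cd55, Nmd3 and Pawr (0.83 to 0.85) and Kcnq1 to Slu7, Klhl32 and Gm42992 (0.79 to 0.82). These genes were the top 3 of all genes tested for each of the 8, so a high r is fixed by the choice.

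The comparison of IP with input asked whether these transcripts had a larger or smaller share in the anti-HA IP than in total RNA. Input is RNA of the whole tissue, GLAST-Cre+ cells included, whether bound to ribosomes or not. A lower IP level therefore cannot tell another cell of origin from less binding to ribosomes. Slc1a3, the GLAST gene, was itself not higher in IP in either treatment group. In controls 0 of the 8 genes tested were higher in IP and 4 were lower, against 19.3% and 20.7% of all genes tested. Kcnq1 fell by 0.74 on the log2 scale (SE 0.18, adjusted p = 0.0033), Kcnj10 by 0.73 (SE 0.17, adjusted p = 0.0021) and Slc12a2 by 0.62 (SE 0.16, adjusted p = 0.0043). Each was lower in IP than in the input of the same pool in 4 of 4 pools. The same held for Kcne1 and, among genes that did not pass, for Atp1b2 and Esrrb. Kcne1 fell by 1.25 (SE 0.44, adjusted p = 0.031), a call lost without control input replicate 1 or 2 or control IP replicate 4 (adjusted p = 0.12 each) or control IP replicate 3 (0.055), and also with a pseudocount of 0.1 (0.053), no filter (0.096) or the compared groups alone (0.071). Without control pools 1 and 2, Kcnj10 alone passed, where 9.90% of all genes tested were higher and 11.3% lower, and the values of Kcnq1, Slc12a2 and Kcne1 were -0.41, -0.67 and -0.73 (adjusted p = 0.29, 0.064 and 0.23).

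The other 4 did not pass in controls. Atp1b2 had an LFC of -0.18 (SE 0.14, adjusted p = 0.33), Kcnj16 of -0.24 (SE 0.27, adjusted p = 0.51), Slc26a4 of -0.27 (SE 0.39, adjusted p = 0.62) and Esrrb of -1.02 (SE 0.63, adjusted p = 0.22). With the pool as a block Esrrb passed (adjusted p = 0.0028). No gene of the set met the study's criteria for enrichment or depletion, which 0.789% and 0.471% of genes tested met. Of the glial genes, 4 of 6 were lower in control IP than in input, against 20.7% of all genes tested. Among them was Mbp, a myelin protein (LFC -1.84, SE 0.25, adjusted p = 1.1e-05). Fabp7, the marker shared with inner phalangeal cells, was higher (LFC 0.62, SE 0.24, adjusted p = 0.046). Their part in the lower IP levels of Kcnj10 and the other genes was not tested.

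In DTR cochleae 0 of the 8 were higher in IP and 3 were lower, against 18.6% and 20.5% of genes tested. Kcnj10 fell by 1.09 on the log2 scale (SE 0.17, adjusted p = 6.6e-05), Atp1b2 by 0.69 (SE 0.14, adjusted p = 0.00054) and Kcnq1 by 0.53 (SE 0.18, adjusted p = 0.028). All 3 were lower in IP in 4 of 4 pools, as were Kcnj16, Slc12a2, Slc26a4 and Esrrb, which did not pass. None of the 8 met the study's criteria for depletion or enrichment (0.247% and 0.730% of genes tested). The Kcnq1 call was lost without DTR input replicate 2 or 3 or DTR IP replicate 3 or 4 (adjusted p from 0.055 to 0.087). With the pool as a block 6 genes passed, the further ones being Kcnj16 (LFC -0.57, adjusted p = 0.017), Slc12a2 (-0.33, 0.029) and Slc26a4 (-0.48, 0.046), and 25.6% of all genes tested were lower in that fit. Slc12a2 also passed without quantile normalization (0.028), with median centring (0.019), with edgeR (0.037) and with DESeq2 (0.021). The median LFC of the 8 genes was -0.68 in controls and -0.55 in DTR, where that of all genes tested was -0.001 and -0.027.

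Whether the change after damage differed between IP and input was tested as an interaction. For 0 of the 8 genes did it pass with limma, and the count was 0 with edgeR and with DESeq2 too. Simulated libraries, drawn as independent and without pools, gave only a rough guide to what the test could find. In them limma recovered 40.4% of 2-fold and 87% of 4-fold differences of this kind, and 6.62% of its calls were false. A count of 0 therefore does not show that IP and input changed alike. Over all genes tested 2 passed (0.0118%). At an unadjusted p under 0.05 there was 1 gene, Atp1b2, whose fall was larger in IP by an LFC of -0.51 (SE 0.19, unadjusted p = 0.015, adjusted p = 0.74), while 5.12% of all genes tested had such a p. The difference was -0.36 for Kcnj10 (SE 0.24), -0.33 for Kcnj16 (SE 0.38) and 0.57 for Kcne1 (SE 0.62).

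Levels per kilobase of exon allowed the genes to be ordered. In control input Slc12a2 was highest at 63.8 ± 5.2 CPM per kilobase (SD, n = 4), then Atp1b2 at 46.9 ± 0.285, Kcnj10 at 19 ± 1.4 and Kcnj16 at 11.1 ± 1.44, with no overlap between neighbours down to Kcnq1 at 3.39 ± 0.435. Below that Kcnq1, Slc26a4 (2.9 ± 1.15), Kcne1 (2.17 ± 1.64), Bsnd (0.492 ± 0.618) and Esrrb (0.448 ± 0.489) each overlapped with the next. In control IP Atp1b2 (40.3 ± 3.4) and Slc12a2 (37.8 ± 4.88) overlapped, as did Kcnj10 (11.2 ± 1.43) and Kcnj16 (9.38 ± 0.958).

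After damage the order changed in the middle. Kcnj16 was at rank 4 in both control groups and at rank 6 in both DTR groups, below Kcnq1 and overlapping with Slc26a4. In DTR input it stood at 1.77 ± 0.559 CPM per kilobase and in DTR IP at 1.19 ± 0.536. Kcnj10 kept rank 3 with 7.03 ± 1.85 in DTR input and 3.33 ± 0.785 in DTR IP, in the latter overlapping with Kcnq1 (2.75 ± 0.633). Slc12a2 headed both DTR groups with 71 ± 11.1 and 52.1 ± 13.

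A wider list of 32 genes of endolymph ion and fluid transport was set beside these, of which 30 were tested. Foxi1, the transcription factor of endolymphatic sac ionocytes, was at 0 in all 16 libraries, and Kcne2 was under the filter. In DTR IP against control IP 1 was higher (3.33%) and 4 were lower (13.3%), where 8.44% and 7.30% of all genes tested were. The lower ones were Aqp5, a water channel of outer sulcus cells (LFC -1.34, SE 0.34, adjusted p = 0.011), Kcne3, a potassium channel accessory subunit (-1.04, SE 0.25, adjusted p = 0.0078), Slc12a7, a K+-Cl- cotransporter of supporting cells (-0.83, SE 0.18, adjusted p = 0.0039), and P2rx2, an ATP-gated channel (-0.64, adjusted p = 0.0017). The higher one was Kcnj13, an inward rectifier that is also among the intermediate cell markers (LFC 0.65, SE 0.18, adjusted p = 0.02).

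In input 0 of the 30 were higher and 2 were lower, against 7.17% and 5.21% of all genes tested, namely Slc12a7 (LFC -0.58, adjusted p = 0.043) and P2rx2 (-0.44, adjusted p = 0.027). Leaving out 1 library moved this count of lower genes between 0 (without DTR input replicate 2) and 4 (without control IP replicate 4). When replicate numbers entered as a block, 3 were higher and 7 lower in IP, and 1 higher and 6 lower in input, while over all genes tested the block gave 12.2% and 11.1% in IP and 9.76% and 7.99% in input. The median LFC of the 30 genes was -0.10 in IP and -0.18 in input. None of them reached the size of the fall of Kcnj16, Kcnj10 or Atp1b2 in IP.

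Between IP and input the wider list was split in direction. In controls 4 were higher in IP (Wnk1, Aqp5, Car2 and Atp1b3) and 4 were lower (Kcnj13, Wnk4, Slc4a2 and Slc12a4), which is below the 19.3% and 20.7% of all genes tested. The kinase Wnk1, which regulates cation-chloride cotransport, had an LFC of 1.00 (SE 0.12, adjusted p = 4.7e-06), and Car2, a carbonic anhydrase, of 0.89 (SE 0.19, adjusted p = 0.00098). In DTR 4 were higher and 5 were lower. With the pool as a block these counts were 8 and 9 in controls and 5 and 8 in DTR, and over all genes tested 23.6% and 25.3% in controls and 22.5% and 25.6% in DTR.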

How the data were processed

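The 16 libraries were sequenced after SMART-Seq v4 amplification. Reads were aligned to GRCm38 and counted with HTSeq, and the authors deposited the result as CPM. For the aligner, HISAT2 is named in the study's methods and TopHat in the submitters' processing notes, and the strand setting and annotation release are not given in the sources used here. Of 50316 genes listed, 47729 had values and 173 of the rows carried no gene name. In every library 100% of values above 0 were whole multiples of 1 read (tolerance 0.05), which gave back the read counts that edgeR and DESeq2 need.

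The deposited CPM were quantile normalized, filtered to genes with 0.5 CPM or more in every replicate of some group and log2 transformed with a pseudocount of 0.5, and group means were fitted in limma 3.58.1 under R 4.3.3, two-sided, with all 16 libraries and a trend of variance with mean. The floor of 1.08 CPM is the 10th percentile of tested values. P-values measure the spread between libraries of a group, and the main fit treats the 16 libraries as independent. Input and IP of a pool are not independent. For IP against input and the interaction the main fit leaves out the pairing within pools, which the block fit includes. In DTR against control, both libraries of a pool enter the estimate of the spread. Same-numbered libraries deviated together from their group means, with r of 0.288 to 0.559 in the 4 pairs of groups and a mean of -0.135 to -0.119 between different numbers. For input and IP the number marks a shared homogenate, and for control and DTR the pairing comes from this check alone. Alternatives were no quantile normalization, median centring, removal of a gene length trend, pseudocounts of 0.1 and 1, no filter, a 2 CPM filter, the replicate number as a block, the compared groups alone, edgeR (4.0.16, quasi-likelihood) and DESeq2 (1.42.0) on the recovered counts, and each library left out. The limma steps were tested on simulated data.

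Named genes were the 9 genes of the set, the genes of the marker and ion transport lists, and for each tested gene of the set the 3 whose deviations were most like it. The set and the lists were chosen with earlier results of these data known, and some genes of the lists are not reported here and are left out of their counts. Other markers are given here once. After damage, 4 of 6 spiral ligament fibrocyte genes were higher in IP (Coch, Car3, Pou3f4 and Tbx18) and 0 of 6 in input. Levels of the 6 in single libraries ran from 0.828 CPM for Slc4a11 to 7606 for Otos. Of 3 outer sulcus genes 1 was lower in IP (Anxa1, LFC -1.28), and 1 was higher (Epyc, 0.49) and 1 lower in input (Anxa1, -1.48). Over all genes tested, 8.44% were higher and 7.30% lower in IP, and 7.17% and 5.21% in input. Cldn11 and the 2 Reissner's membrane genes passed in neither. Slc1a3, the GLAST gene, lay between 194.7 and 302.8 CPM in all libraries and was not enriched in IP. Its LFC of IP against input was -0.20 in control (SE 0.09, limma, adjusted p = 0.1) and -0.27 in DTR (SE 0.09, adjusted p = 0.03). Mouse Hbegf does not check the human toxin receptor. Gene positions are from a GRCm38 annotation and promoters from RefSeq (GRCm38.p6).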

Additional observations from a re-analysis of the deposited data

Results flagged for a closer look

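In groups of 4 libraries, the gap between the lowest library and the next was compared with the group's whole range, and 3 of 36 groups of values for the 9 genes exceeded Dixon's critical value. Chance flags about 1 in 20 groups. Atp1b2 was lowest in replicate 3 of both IP groups, at 144 CPM in control IP (gap over range 0.858) and 39.72 CPM in DTR IP (0.869). Slc12a2 was lowest in control IP replicate 4, at 333.7 CPM (0.863).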

How the results depend on the processing

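The falls of Kcnj16, Kcnj10 and Atp1b2 after damage, in IP and in input, kept their direction and passed under every alternative run. Leaving out 1 library moved the number of genes that passed to between 3 and 5 for control IP against control input, 2 and 4 for DTR IP against DTR input, 3 and 5 for DTR IP against control IP (3 without control IP replicate 1), 4 and 4 for DTR input against control input, and 0 and 0 for the interaction. Under a replicate block (the pool, for IP against input), 6 genes in place of 3 passed in DTR IP against DTR input, and 1 more in control IP against control input (Esrrb) and in DTR IP against control IP (Slc26a4); it changed no other call. With no filter on low values 3 genes passed in DTR IP against control IP in place of 5, with more genes in the adjustment. An alternative chosen after seeing the data left out both libraries of control pools 1 and 2: 1 gene in place of 4 then passed in control IP against control input, where calls over all genes tested also fell, from 3273 higher and 3514 lower to 1704 and 1942, and the LFC of Esrrb in DTR input against control input turned from -0.15 to 1.37. Over all alternatives, 796 LFC of single genes kept their side of the threshold, 14 came to pass, 32 no longer passed and 1 turned sign with a call. In all 13 values had the other sign, 12 of them uncalled in either fit, for Slc26a4, Esrrb, and the interactions of Kcnj16 and Kcnq1. The interaction has no fit of the compared groups alone, since it needs all 4 groups. Depth limits Bsnd, and Kcne1 and Esrrb in DTR IP.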
